A study of Rattus norvegicus with 4 samples.

Results

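Fabp7, Apoe, Glul and Cdh19, 4 genes used as markers of satellite glia, were followed in rat trigeminal tissue, in spots rich in RNA of sensory neurons and in spots of nerve and of central tissue. They were taken from the deposited gene list by symbol, 4 of 32623 genes, as Fabp7 (ENSRNOG00000000814), Apoe (ENSRNOG00000018454), Glul (ENSRNOG00000049560) and Cdh19 (ENSRNOG00000029841). RNA was counted on 4 Visium capture areas, grids of barcoded spots that each collect RNA from several cells, as unique molecular identifiers (UMIs). TN1, TN2 and TN3 held the root, the semilunar ganglion and the first stretch of the branches from the compressed side of 1 wild-type adult male Sprague-Dawley rat each, after unilateral mechanical compression of the trigeminal root, a model of trigeminal neuralgia. HC held such tissue of the healthy side of 2 animals, which the methods call sham-operated and the series text places among the animals of the TN areas, so HC counted as 1 sample, and it may share rats with the TN areas. Condition and capture area cannot be told apart here, and the time of sampling after surgery is not given as a number of days in the sources used here.

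Satellite glia are flat cells of neural crest origin that wrap the cell bodies of sensory neurons in a ganglion. They take up glutamate and potassium, supply lipids and metabolites to the neuron, and are close relatives of the Schwann cells that ensheath the axons of the nerve. Fabp7 encodes a brain-type fatty acid binding protein of glia, Apoe a lipid carrier made by astrocytes, satellite glia and macrophages, Glul glutamine synthetase, the enzyme that turns glutamate into glutamine, and Cdh19 a cadherin of the neural crest glial lineage. Fabp7 and Glul are also made by astrocytes of the central nervous system, and Glul by oligodendrocytes.

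Spots were put into classes by genes other than these 4. A score was the share of a spot's UMIs in a gene list, divided by the 90th percentile of that share over all 6773 spots. Neuron-rich spots scored at least 0.5 for Avil, Scn10a and Isl1, with a central score under 0.25. Nerve spots were chosen in the same way by 4 genes of Schwann cell myelin (Prx, Drp2, Egr2 and Ncmap) and central spots by 5 oligodendrocyte genes (Mobp, Mog, Opalin, Ermn and Hapln2), both with low scores for the other lists. Neuron-rich spots numbered 316 (TN1), 173 (TN2), 270 (TN3) and 1048 (HC). Nerve spots numbered 318, 145 and 486 in the TN areas and 8 in HC, where they were not used, and central spots numbered 319, 199, 246 and 313. All nerve levels below therefore come from the compressed side, whereas neuron-rich and central spots include HC. Neuron-rich spots were the deepest, with medians of 26218 to 45246 UMIs, against 7893 to 30980 in nerve spots and 4869 to 11357 in central spots of the areas. A level is given below as CPM, the UMIs of a gene per 1000000 UMIs of all spots of a class in an area, and as UMIs per spot, which also moves with depth. In such sums, fewer cells of a type and less RNA per cell cannot be told apart.

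Only in part did the levels follow the name of satellite glia genes. By CPM and among these 3 classes, Apoe had its highest mean level in neuron-rich spots, without passing the test against either other class, Fabp7 and Glul were highest in central spots, and Cdh19 was highest in nerve spots. Kcnj10, the inwardly rectifying potassium channel of satellite glia, was at or near 0 in every class (0 to 0.978 CPM). That included central spots, where the astrocyte gene Aqp4 was at 611 to 1158 CPM. A gene this low in every class does not bear on the presence of satellite glia. On a list of 15 other satellite glia genes, 14 were tested, and against nerve spots 2 were higher (Ttyh1 and Ptprz1) and 9 lower. Against central spots 2 were higher (Erbb3 and Sparc) and 11 lower. Of all genes tested, 27.2% were higher and 24.8% lower against nerve spots, and 28.4% and 22% against central spots. The 4 genes are therefore described by their own names.

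In neuron-rich spots, Fabp7 was at 139 CPM (TN1), 115 (TN2), 167 (TN3) and 122 (HC), or 136 ± 23.1 (mean ± SD, n = 4). In nerve spots it was 32.6, 54.7 and 98.8 CPM in TN1 to TN3, a mean of 62.0 ± 33.7 (SD, n = 3). In central spots it was 259, 845, 629 and 386 CPM in TN1, TN2, TN3 and HC, a mean of 529.8 ± 260.1 (SD, n = 4). Neuron-rich spots thus lay above all nerve values and below all central values, without overlap. The share of all genes without such overlap was not worked out, here or for Glul and Cdh19 below. With edgeR's quasi-likelihood test and Benjamini-Hochberg adjustment over 11307 genes, Fabp7 was higher in neuron-rich than in nerve spots by a log2 fold change of 1.28 (SE 0.32, adjusted p = 0.00724), a fold of 2.44. Of all genes tested in this comparison 27.2% were higher and 24.8% lower, so a call by itself sets no gene apart. With the area as a block, these p-values measure how far class differences vary between capture areas, pooled over the 3 classes. The call was lost at a score threshold of 0.25 (log2 fold change 0.86, adjusted p = 0.0849), with spots thinned to 2000 UMIs (0.85, adjusted p = 0.0541) and without the capture area as a replicate block (1.07, adjusted p = 0.0516). Against central spots Fabp7 was lower, with a log2 fold change of -2.00 (SE 0.28, adjusted p = 0.000246), where 28.4% of genes were higher and 22% lower.

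Astrocyte genes moved with Fabp7 between neuron-rich and central spots. The 7 genes of an astrocyte list summed to 236 to 525 CPM in neuron-rich spots and to 2612 to 7698 CPM in central spots, and 6 of the 6 tested were lower in neuron-rich spots (22% of all genes). Aqp4, the water channel of astrocytes, was at 25.03 to 67.4 CPM in neuron-rich and 611 to 1158 CPM in central spots. For each UMI of Aqp4, neuron-rich spots held 3.25, 3.50, 6.66 and 1.81 UMIs of Fabp7 in TN1, TN2, TN3 and HC, and central spots 0.424, 0.729, 0.661 and 0.373. Fabp7 and Aqp4 thus changed unequally between these classes, and Fabp7 UMIs exceeded those of Aqp4 in neuron-rich spots of all 4 areas and in central spots of none. Nerve spots held 0.737, 1.61 and 1.67 UMIs of Fabp7 per UMI of Aqp4 in TN1 to TN3, so Fabp7 exceeded Aqp4 there too in TN2 and TN3. The part of astrocytes in the Fabp7 level of either class was not tested.

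Other fatty acid binding proteins followed no single order of the classes. Pmp2, the fatty acid binding protein of peripheral myelin, was at 129 to 233 CPM in neuron-rich spots and 797 to 1147 CPM in nerve spots, a log2 fold change of -2.57 (adjusted p = 6.86e-05). Fabp5, the epidermal type, which is also made by neurons and glia, was at 1005 to 1547 CPM in neuron-rich spots, higher than in nerve spots by 1.28 (adjusted p = 0.00101) and than in central spots by 0.65 (adjusted p = 0.0182) on the log2 scale. Of the 5 genes of the family tested, Fabp7 included, 3 were higher and 1 lower in neuron-rich than in nerve spots (27.2% and 24.8% of all genes). Against central spots 3 were higher and 2 lower (28.4% and 22% of all genes).

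Apoe was at 9369 CPM (TN1), 12090 (TN2), 9922 (TN3) and 9569 (HC) in neuron-rich spots, a mean of 10238 ± 1256 (SD, n = 4). Nerve spots held 3442, 11127 and 8966 CPM in TN1 to TN3, and central spots 4231, 8736, 8393 and 6732 CPM in TN1, TN2, TN3 and HC. Neuron-rich spots were above nerve spots in 3 of 3 areas and above central spots in 4 of 4, but the nerve value of TN2 exceeded the neuron-rich values of TN1, TN3 and HC, so those groups overlapped. Apoe did not pass edgeR's test against nerve spots, at a log2 fold change of 0.50 (SE 0.23, adjusted p = 0.0953), with an interval for the fold in neuron-rich over nerve spots of 0.988 to 2.01. Nor did it pass against central spots, at 0.45 (SE 0.21, adjusted p = 0.0882). Without TN1, whose nerve spots had the lowest level, the log2 fold change was 0.15 (adjusted p = 0.438) against nerve and 0.26 (adjusted p = 0.118) against central spots, and without each other area it was 0.51 to 0.68 and 0.48 to 0.56. The outcome depended on the setting, since Apoe was called higher in 4 of 16 alternatives against nerve spots and in 3 of 16 against central spots.

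Macrophages also make Apoe, and most of their genes were lower in neuron-rich spots. C1qa, the macrophage and microglia complement gene, was at 35.8 to 124 CPM in neuron-rich spots, 105 to 330 in nerve spots and 169 to 504 in central spots. Of 9 macrophage genes tested, 7 were lower in neuron-rich than in nerve spots and none was higher, and against central spots 6 were lower and 1, Mrc1, was higher. Of all genes, 24.8% were lower than in nerve and 22% lower than in central spots. For each UMI of C1qa, neuron-rich spots held 140, 97.2, 82.8 and 267 UMIs of Apoe in TN1, TN2, TN3 and HC, above the 32.7, 41.2 and 27.1 of nerve spots and the 25.1, 21.0, 16.7 and 30.1 of central spots. These ratios rest on C1qa alone, and the part of macrophages in the Apoe levels of the classes was not tested. Among 12 genes of lipid transfer, 4 were higher and 5 lower in neuron-rich than in nerve spots (27.2% and 24.8% of all genes). Clu, another apolipoprotein, was higher by 1.38 (adjusted p = 0.000766) and Apod, a lipocalin of nerve sheath cells, lower with a log2 fold change of -2.17 (adjusted p = 0.000375). The ApoE receptor gene Lrp8 was higher by 1.59 (adjusted p = 0.000181) on the log2 scale, and Lrp1, another, lower at -1.30 (adjusted p = 8.16e-05). Against central spots 2 of the 12 were higher and 9 lower (28.4% and 22% of all genes).

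Glul was at 186 CPM (TN1), 159 (TN2), 142 (TN3) and 139.8 (HC) in neuron-rich spots, a mean of 157 ± 21.2 (SD, n = 4). In nerve spots it was 369, 215 and 333 CPM in TN1 to TN3. In central spots it was 734, 577, 406 and 392 CPM in TN1, TN2, TN3 and HC. Every neuron-rich value lay below every nerve value, and every nerve value below every central value, which is the same order in each TN area. Glul was lower in neuron-rich than in nerve spots, with a log2 fold change of -0.94 (SE 0.19, adjusted p = 0.0027, edgeR), and than in central spots, with -1.88 (SE 0.18, adjusted p = 1.74e-05).

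Genes that handle glutamate with glutamine synthetase did not follow it as a group against nerve spots. Against central spots most were lower, as Glul was. Of 10 tested against nerve spots, 5 were higher and 3 lower in neuron-rich spots (27.2% and 24.8% of all genes). Against central spots 3 were higher and 6 lower (28.4% and 22% of all genes), with a median log2 fold change of -1.18 (all genes 0.07). The aminotransferase gene Got2 was higher than in nerve spots by 1.45 (adjusted p = 8.91e-05) and than in central spots by 0.99 (adjusted p = 0.000255), on the log2 scale. Slc1a3, the glial glutamate transporter GLAST, which is also on the satellite glia list, was at 19.96 to 34.7 CPM in neuron-rich, 31.8 to 51.3 in nerve and 216 to 239 in central spots, lower than in both (log2 fold changes -0.58 and -3.19, adjusted p = 0.0184 and 6.86e-07). Slc38a3, a glutamine transporter of glia, was lower as well, at 7.56 to 9.66 CPM against 13.5 to 30.5 in nerve and 87.5 to 108 in central spots. The 5 oligodendrocyte genes, which mark another source of Glul and chose the central spots, summed to 41.1 to 168 CPM in neuron-rich and 1981 to 2238 CPM in central spots, and their part in the Glul level was not tested.

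Cdh19 was at 63.6 CPM (TN1), 59.5 (TN2), 98.6 (TN3) and 45.8 (HC) in neuron-rich spots. In nerve spots it was 137, 103 and 130 CPM in TN1 to TN3, above all neuron-rich values. In central spots it was 18.7, 17.6, 28.1 and 16.0 CPM in TN1, TN2, TN3 and HC, below all neuron-rich values. Cdh19 was lower in neuron-rich than in nerve spots, with a log2 fold change of -0.86 (SE 0.16, adjusted p = 0.00135, edgeR), and higher than in central spots by 1.56 (SE 0.16, adjusted p = 3.32e-05), a fold of 2.95. It was called higher than in central spots in 16 of 16 alternatives, and Fabp7 and Glul were called lower in 15 of 16 each. The exception for both was UMIs per spot, a scale on which 90.1% of genes were called higher.

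Pmp22, a Schwann cell myelin gene that chose no spots, was lower in neuron-rich than in nerve spots as well. It was at 3436 to 6014 CPM in neuron-rich and 12050.4 to 30214 CPM in nerve spots, a log2 fold change of -2.13 (SE 0.29, adjusted p = 0.000281). Against central spots, at 1088 to 1912 CPM, it was higher by 1.63 (SE 0.26, adjusted p = 0.000524), so its order of the classes was that of Cdh19. The part of Schwann cells in the Cdh19 level was not tested. Of 6 other cadherins tested against nerve spots, 3 were higher in neuron-rich spots and 1 lower (27.2% and 24.8% of all genes). Cdh2, the neural cadherin, was higher by 1.97 on the log2 scale (adjusted p = 1.14e-05) and Cdh5, the cadherin of endothelium, lower at -0.92 (adjusted p = 0.00628).

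**Figure D1:**
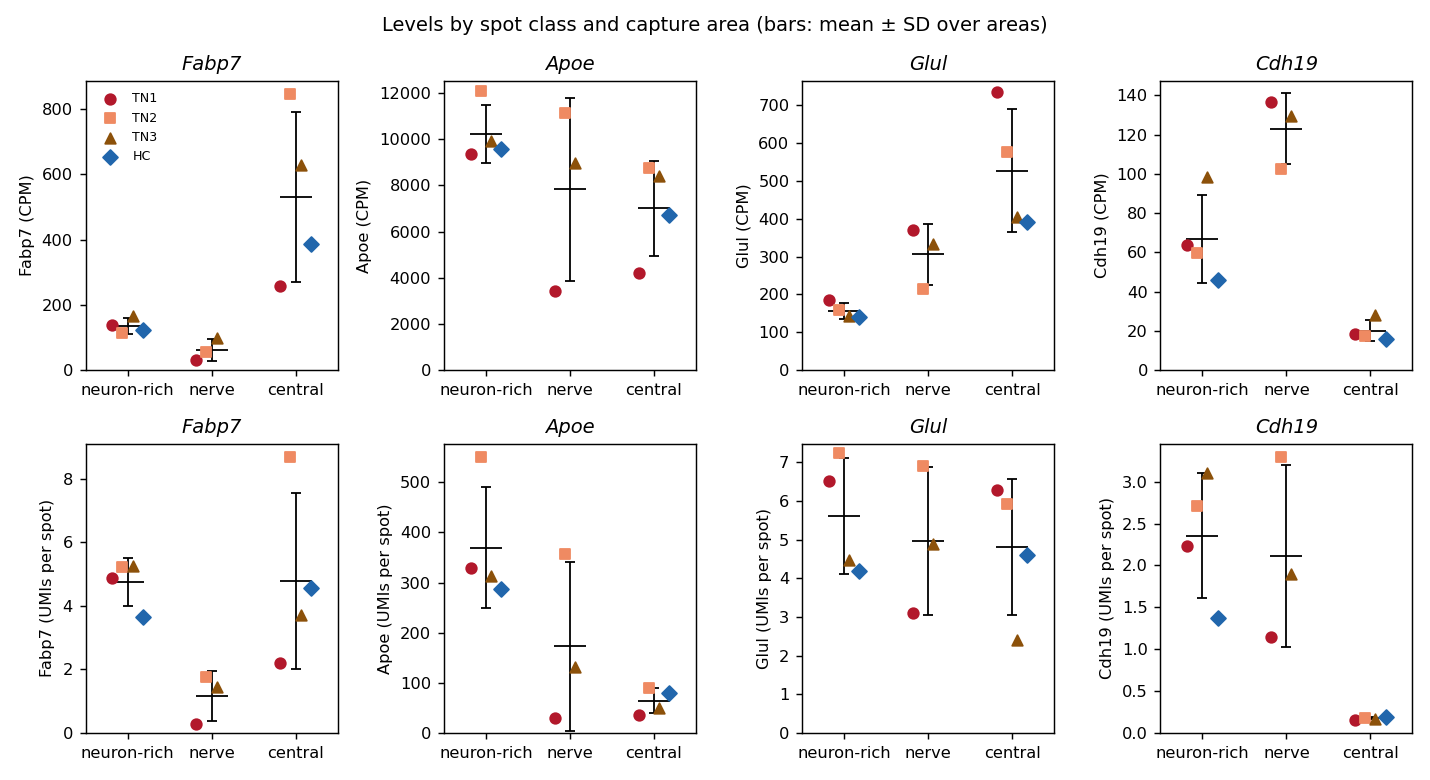
Levels of Fabp7, Apoe, Glul and Cdh19 in neuron-rich, nerve and central spots, as CPM in the upper row and as UMIs per spot in the lower row, on linear axes from 0, with 1 point per capture area and bars for the mean and SD over areas. By CPM the neuron-rich points of Glul lie lowest and those of Cdh19 lie between nerve and central points, whereas by UMIs per spot the neuron-rich points of Apoe lie between 288 and 550 and those of Fabp7 overlap the central points.

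The order of the classes depended on the scale. Counted as UMIs per spot, Fabp7 was at 4.88, 5.23, 5.26 and 3.66 in neuron-rich spots of the areas in the order TN1, TN2, TN3, HC, 0.274, 1.76 and 1.45 in nerve spots and 2.22, 8.68, 3.73 and 4.55 in central spots. Apoe was at 330, 550, 313 and 288 UMIs per neuron-rich spot, 28.9, 358 and 131 per nerve spot and 36.2, 89.8, 49.8 and 79.2 per central spot. On this scale the median of all genes was itself higher in neuron-rich spots, by 1.12 against nerve and 2.20 against central spots on the log2 scale, and 47.9% and 90.1% of genes were called higher. Per spot, Fabp7 was higher than in nerve spots by 2.43 (SE 0.54, adjusted p = 6.62e-05, edgeR) and Apoe by 1.54 (SE 0.51, adjusted p = 0.00881), both above that median. Against central spots Apoe was higher by 2.62 (SE 0.46, adjusted p = 5.1e-08) and Cdh19 by 3.70 (SE 0.49, adjusted p = 1.41e-12), again above the median of all genes.

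Per spot, the lower levels found by CPM were not seen. Glul was at 6.53, 7.24, 4.47 and 4.20 UMIs per neuron-rich spot of TN1, TN2, TN3 and HC, 3.10, 6.92 and 4.88 per nerve spot and 6.28, 5.93, 2.41 and 4.61 per central spot, so that the 3 classes overlapped. Its log2 fold changes per spot were 0.21 against nerve (adjusted p = 0.727) and 0.24 against central spots (adjusted p = 0.6). Cdh19 was at 2.24, 2.71, 3.11 and 1.38 UMIs per neuron-rich spot and 1.15, 3.30 and 1.90 per nerve spot, a log2 fold change of 0.31 (adjusted p = 0.59). For Fabp7 against central spots the per-spot value was 0.21 (adjusted p = 0.655). These 4 values lay below the median of all genes on that scale, as they did by CPM.

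**Figure D2:**
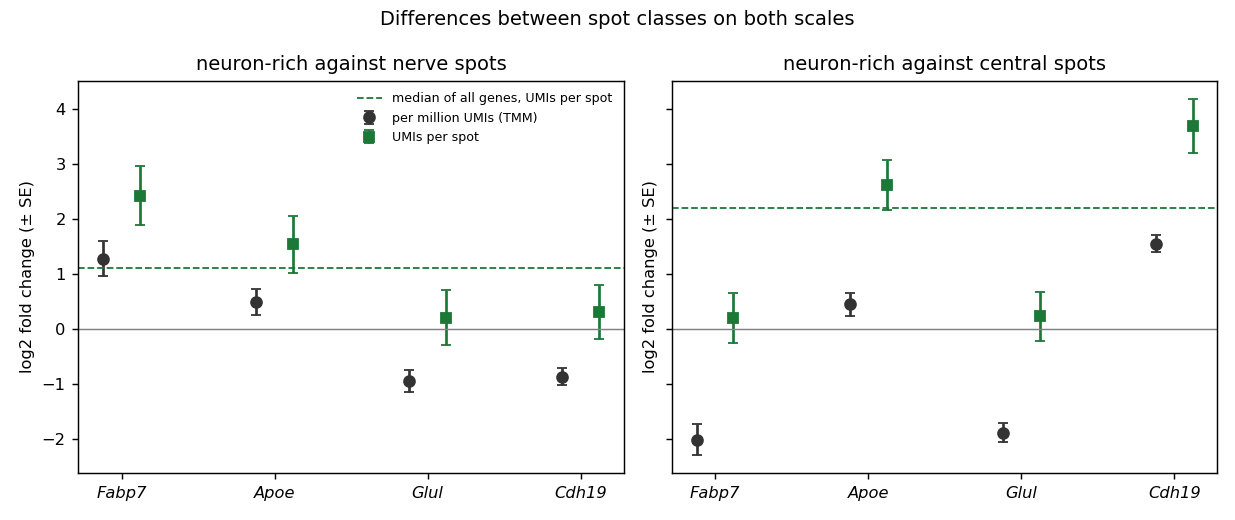
Log2 fold changes (± SE) of the 4 genes in neuron-rich spots against nerve spots (left) and against central spots (right), from CPM with TMM normalization (circles) and from UMIs per spot (squares). The dashed line is the median of all genes per spot, 1.12 on the left and 2.20 on the right, and relative to it the squares keep the signs of the circles.

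Over the neuron score, in spots with a central score under 0.25, Glul by CPM was lower at the highest than at the lowest scores of every area. By CPM, Fabp7 and Apoe followed no common course, as a description with no test. From spots without a UMI of Avil, Scn10a or Isl1 to spots with a score of 1 or more, Glul went from 413 to 163 CPM in TN1, from 425 to 133 in TN2 and from 371 to 111 in TN3. Cdh19 went from 133 to 49.8 CPM in TN1 and from 129 to 71.7 in TN3, but from 60.4 to 59.7 in TN2. Fabp7 went from 42.0 to 149 CPM in TN1, from 102 to 122 in TN2 and, in the other direction, from 282 to 148 in TN3. In HC, whose lowest bin with 20 or more spots began at a score of 0.25, the values from that bin to the highest were 110 to 121 CPM for Fabp7, 7515 to 9460 for Apoe, 185 to 130.2 for Glul and 59.1 to 39.9 for Cdh19.

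Apoe was at 3402 CPM at the lowest and 9513 CPM at the highest scores of TN1, whereas in TN2 and TN3 it peaked in spots with a score above 0 and under 0.25, at 14190 and 15341 CPM, and was 11025 and 8659 at the highest scores. C1qa moved with it there: it was 309.9 and 546 CPM in those same bins of TN2 and TN3, and 82.8 and 99.7 CPM at the highest scores. In TN1 C1qa was 126 CPM in that bin and 42.0 at the highest scores. The part of macrophages in these Apoe levels was not tested.

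**Figure D3:**
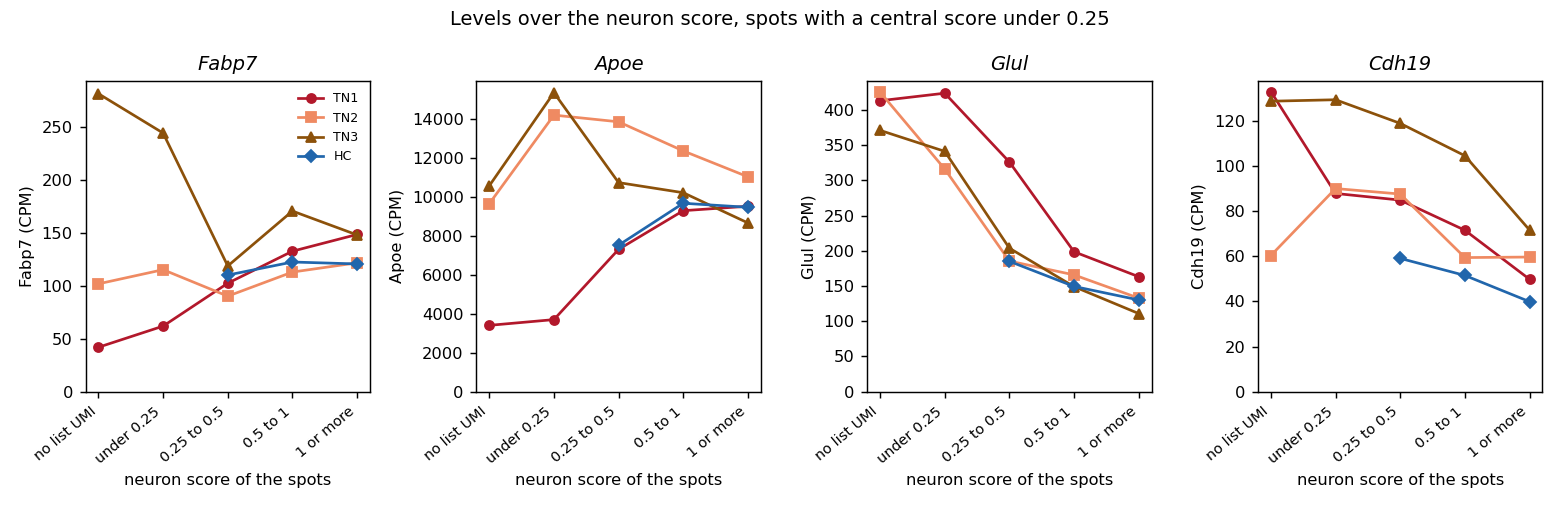
CPM of the 4 genes (linear axes from 0) over 5 bins of the neuron score in spots with a central score under 0.25, with 1 line per capture area and only bins of 20 or more spots. Glul lies lower at the highest than at the lowest scores in every area, and Fabp7 goes up in TN1, from 42.0 to 149 CPM, and down in TN3, from 282 to 148 CPM. Per spot, which is not drawn, Fabp7 is higher at the highest than at the lowest scores of every area.

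Shares of spots with a UMI of each gene were compared after spots had been thinned to 2000 UMIs. Shallower spots were left out, 10 central and 4 nerve spots of TN3, 2 central spots each of TN1 and TN2, and 1 nerve spot of TN1. Apoe was found in 100% of spots of every class, thinned or not. Fabp7 was found in 16.8% to 25.2% of neuron-rich, 5.05% to 17.8% of nerve and 40.1% to 76.6% of central spots. In TN2 the neuron-rich share of 16.8% (exact 95% binomial interval 11.5 to 23.2) was not separate from the nerve share of 15.9% (10.3 to 22.8), while in TN1 the shares were 22.5% (17.99 to 27.5) and 5.05% (2.91 to 8.07). Cdh19 was found in 8.68% to 17.8% of neuron-rich and 17.2% to 22.7% of nerve spots. Central spots, which hold few cells of the neural crest lineage, gave 3.05% to 5.93%, which serves as a background for Cdh19, while Fabp7 and Glul have no class that should lack them. Unthinned, the neuron-rich shares were 87.0% to 95.4% for Fabp7, 92.4% to 100% for Glul and 64.8% to 92.5% for Cdh19, and the central share of Cdh19 was 15.05% to 16.9%, at the depths given above. The intervals cover counting error only.

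Within an area, the genes whose levels over spots were most like those of each member differed between the 4. Correlations of log2(UMIs per 10000 + 1) over all spots of an area were averaged over the 4 areas, among 7797 genes with a UMI in at least 10% of spots of every area, and the spots of an area share a library and differ in depth. For Fabp7 the 5 highest were Gfap, Aqp4, Tf, Mlc1 and Aplp1, with mean r of 0.54 to 0.62, of which Gfap, Aqp4 and Mlc1 are astrocyte genes. For Glul they included Cldn11, Tf, Ptgds and Sparcl1, with mean r of 0.36 to 0.40, of which Cldn11 and Tf are oligodendrocyte genes. For Cdh19 they included Vim, Itgb4, Plekha4 and Lamb1, with mean r of 0.40 to 0.42, and Itgb4 and Lamb1 encode a laminin receptor subunit and a laminin chain. For Apoe they were Ctsb, Tmem176a, Lgals3, Tmsb10 and Ngfr, with mean r of 0.42 to 0.50. With C1qa, Apoe had r of 0.05, 0.38, 0.39 and -0.15 over all spots of TN1, TN2, TN3 and HC. With Avil its r was 0.54, 0.30, 0.04 and 0.36 in the same order. No member was among the 5 genes of another.

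Inside neuron-rich spots the correlation of Fabp7 with Aqp4 was lower than over all spots. The correlation of Fabp7 with Apoe was positive and that with Glul negative in all 4 areas. Fabp7 and Aqp4, with r of 0.49 to 0.68 over all spots, had r of 0.21, -0.00, 0.12 and 0.12 in neuron-rich spots of the areas in the order TN1, TN2, TN3, HC. Fabp7 and Apoe had r of 0.34, 0.17, 0.27 and 0.14 there. For Fabp7 and Glul r was -0.07, -0.04, -0.17 and -0.02, and for Fabp7 and Cdh19 -0.01, 0.08, 0.13 and 0.01. Apoe had r of -0.22, 0.18, -0.05 and 0.02 with Glul and of 0.01, 0.10, 0.14 and 0.09 with Cdh19. Glul and Cdh19 had r of 0.03, 0.15, 0.10 and 0.08. These correlations are across spots, which are no independent replicates, and are given as a description. Neuron-rich spots were limited to a central score under 0.25, which narrows their range of central RNA. They held a mean of 1.45 UMIs of Aqp4 per spot, against 8.75 in central spots. The part of this limit and of low counts in the lower r of Fabp7 and Aqp4 was not tested.

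Between TN and HC, none of the 4 genes passed the test in neuron-rich spots. The level of Cdh19 was higher in each of the 3 TN areas (63.6, 59.5 and 98.6 CPM) than in HC (45.8 CPM), a log2 fold change of 0.63 (SE 0.32, adjusted p = 0.494, edgeR) with an interval for the fold of 0.896 to 2.67. Those of Fabp7 (TN 139, 115 and 167, HC 122 CPM) and Apoe (TN 9369, 12090 and 9922, HC 9569 CPM) lay on both sides of HC, with log2 fold changes of 0.14 (SE 0.24, adjusted p = 0.835) and 0.06 (SE 0.19, adjusted p = 0.916). Glul was at 186, 159 and 142 CPM in TN against 139.8 in HC, and its log2 fold change was 0.15 (SE 0.19, adjusted p = 0.781), and the interval of the fold was 0.799 to 1.55. HC gives no spread of its own and was taken to vary like TN. The share of all genes with every TN area above HC in these spots was not worked out. In this fit edgeR called 0 of 12389 genes (0%), though 1403 had an unadjusted p under 0.05, and DESeq2 called 195, none of them a member. Without TN1, edgeR called 850 genes, again with no member among them.

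Genes of other cells and of injury had other levels in TN than in HC in these spots, with no gene passing the test. The 9 macrophage genes summed to 577 to 1079.9 CPM in the TN areas and 246 CPM in HC, and 9 of 9 had a positive log2 fold change (median 1.29, all genes 0.04), of which none passed. All 5 astrocyte genes tested had a negative log2 fold change (median -0.82) and 4 of 5 oligodendrocyte genes did (median -1.36), of which none passed. The 4 injury genes Atf3, Sprr1a, Sox11 and Csrp3 summed to 175 to 321 CPM in TN and 5.998 CPM in HC, and the 3 of them that were tested had positive log2 fold changes (median 6.24) with adjusted p of 0.0542 to 0.201. Their part in the levels of the 4 genes was not tested.

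Summed over all spots, the 4 genes again did not pass. The level of Cdh19 was 57.4, 74.4 and 111 CPM in TN1, TN2 and TN3 and 39.9 in HC (log2 fold change 0.94, SE 0.44, adjusted p = 0.559, edgeR). That of Glul was 376, 272 and 273 CPM in TN1, TN2 and TN3 and 183 in HC (log2 fold change 0.67, SE 0.31, adjusted p = 0.559). For both, each TN area lay above HC. The share of all genes with this order was not worked out, so the order sets neither gene apart. Fabp7 was at 148, 161 and 258 CPM against 163, and Apoe at 6807, 12825 and 12365 CPM against 8867, with HC inside the range of TN for both. Of 14902 genes tested by edgeR, 0 were called (0%), 1271 had an unadjusted p under 0.05, and DESeq2 called 144. Neuron-rich spots were 52.1% of the spots of HC and 13.8% to 19.9% of those of the TN areas, so the mix of classes differed between these sums. Without TN1, edgeR called 2171 genes, with no member among them.

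Whether TN and HC differed by another amount in neuron-rich than in central spots was tested as an interaction. It was -0.27 (SE 0.65) for Fabp7, 0.11 (SE 0.48) for Apoe, -0.34 (SE 0.40) for Glul and 0.24 (SE 0.38) for Cdh19 on the log2 scale, with adjusted p of 0.894 to 0.978. Of 11307 genes 0 were called by edgeR (0%), 632 had an unadjusted p under 0.05, and DESeq2 called 3. The same interaction against nerve spots could not be fitted, because HC had 8 of them.

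Within the TN areas, neuron-rich spots were ranked by the summed share of Atf3, Sprr1a, Sox11 and Csrp3, genes induced in injured sensory neurons, each area's spots were split by rank into 3 groups of equal size, and the highest (injury-rich) was compared with the lowest (injury-poor) group. Fabp7 was lower in the injury-rich group of 3 of 3 areas. Its level in the injury-poor and the injury-rich group was 161 and 124 CPM in TN1, 138 and 89.6 in TN2, and 174 and 152 in TN3. The log2 fold change was -0.37 (SE 0.08, adjusted p = 0.00643, edgeR with the area as a block), where 3.67% of 9744 genes were lower and 3.86% higher. In HC, where these genes were at or near 0, the same ranking gave 118 and 125 CPM, without a test. Both HC groups held spots with no UMI of these genes, and ties were ordered by barcode. The HC pair is therefore not a split by injury and sets no contrast to the TN areas. The call for Fabp7 did not hold in 6 of 14 alternatives: DESeq2 gave an adjusted p of 0.195, a score threshold of 0.25 gave 0.0963, spots thinned to 2000 UMIs turned the sign (0.01, adjusted p = 0.9996), no replicate block gave 0.932, UMIs per spot gave 1, and leaving out TN2 gave -0.26 with an adjusted p of 0.126. Per spot, Fabp7 was at 4.27 and 5.34 UMIs in TN1, higher in the injury-rich group, where the median depth of the groups was 15682 and 42241 UMIs.

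The other members did not pass in this comparison. Apoe had a log2 fold change of -0.00 (SE 0.06, adjusted p = 0.982), with a fold between 0.909 and 1.09, and Glul 0.06 (SE 0.07, adjusted p = 0.74), with a fold between 0.939 and 1.16. Cdh19 went from 44.1 to 72.0 CPM in TN1, from 64.1 to 54.6 in TN2 and from 95.5 to 104 in TN3, a log2 fold change of 0.22 (SE 0.12, adjusted p = 0.357) that passed without TN2 (0.41, adjusted p = 0.0173). Other genes of the family of Fabp7 went both ways, Fabp5 higher by 0.41 (adjusted p = 0.000918) and Fabp3 lower at -0.51 (adjusted p = 0.00173).

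Genes of other cells differed between these groups too, where 3.86% of all genes were higher and 3.67% lower. Of 8 macrophage genes tested 5 were higher in the injury-rich group, and the list summed to 369 and 759.9 CPM in TN1, 939 and 1212 in TN2, and 811 and 972 in TN3. Of 8 sensory neuron genes 6 were lower, among them Scn10a, which helped to choose the spots, at -0.75 (adjusted p = 8.68e-07, edgeR). Of the same genes 1 was higher, Prph, which encodes the intermediate filament protein peripherin, at 0.40 (adjusted p = 0.00173, edgeR). Of 13 satellite glia genes 1 was higher, Erbb3 at 0.35 (adjusted p = 0.0149), and none lower, and of 12 lipid transfer genes 3 were higher, among them Abca1 at 0.60 (adjusted p = 8.72e-05) and Apod at 0.34 (adjusted p = 0.00393). The part of macrophages, of neuronal RNA and of depth in the lower Fabp7 level was not tested.

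**Figure D4:**
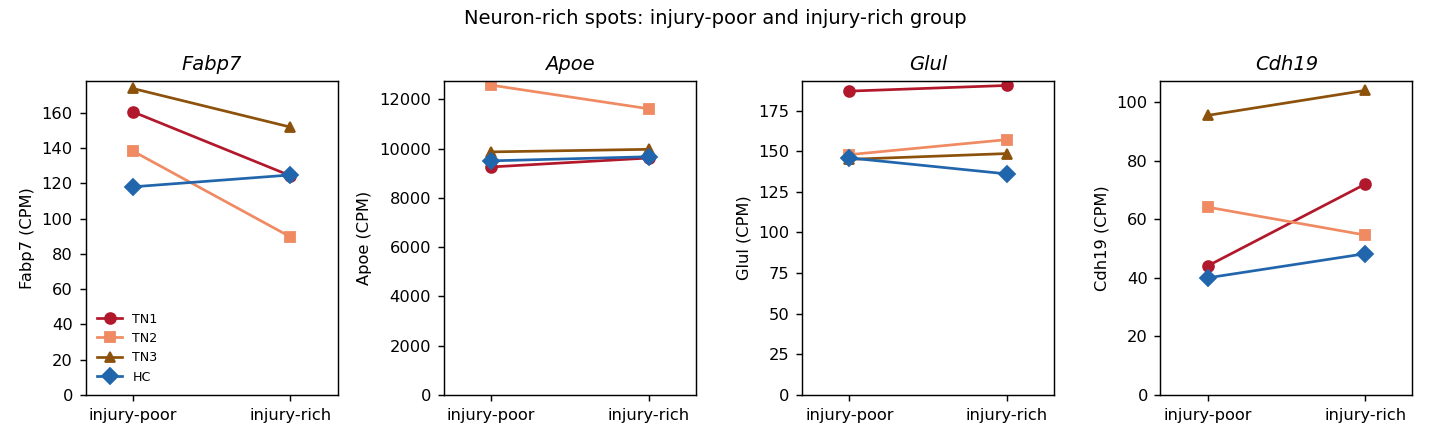
CPM of the 4 genes in the injury-poor and the injury-rich group of neuron-rich spots, ranked by the share of Atf3, Sprr1a, Sox11 and Csrp3, on linear axes from 0, with 1 line per capture area. Fabp7 is lower in the injury-rich group of TN1, TN2 and TN3, the lines of Apoe and Glul are nearly level in TN1 and TN3, and Cdh19 goes up in TN1 and TN3 and down in TN2. Both HC groups hold spots without a UMI of these injury genes, ordered by barcode, so the HC lines show no split by injury.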

How the data were processed

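UMI counts per gene and spot were deposited by the authors as 1 filtered matrix of the whole series, with 6773 spots, made with Space Ranger 1.2.0 per the file header; the submitters' processing notes also name STAR, and the genome build is not given in the sources used here. Spots were assigned to TN1, TN2, TN3 and HC by the number at the end of the barcode. The series text gives the order of the capture areas, with HC as the final one, and the numbers were read in that order. Of 3573 barcode sequences, which stand for slide positions, 2337 occurred in 2 or more areas and 52 in all 4. The areas held 23546025 (TN1), 38769935 (TN2), 32239597 (TN3) and 41335930 (HC) UMIs.

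The score of a spot was the list's UMIs per 10000, divided by the 90th percentile over all spots (10.8 for neuron, 22.0 for nerve and 21.4 for central genes). A class required a score of at least 0.5, at least 3 UMIs of its list and scores under 0.25 for the other lists (for neuron-rich spots, the central list alone), and entered an area with 20 or more spots. Counts were summed per class and area, since spots of an area are not replicates, and tested with edgeR 4.0.16 (R 4.3.3; filterByExpr, TMM, glmQLFit and glmQLFTest, area as a block where classes of an area were compared), with Benjamini-Hochberg adjustment over all genes tested and a threshold of 0.05. Sums of classes shared 1 fit. A planned interaction against nerve spots was replaced by one against central spots after the data were seen. The area pairs the classes because sums with the same area come from the same tissue. The correlations are Pearson's.

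The alternatives were DESeq2 1.42.0, its size factors, no filter, other score thresholds, no Scn10a, the 100 highest spots, a spot filter, gene families left out, thinning to 2000 UMIs (150 spots are shallower), UMIs per spot, no block and each area left out. Intervals are 95%, those of shares exact binomial (scipy 1.17.1, Python 3.11.15), and the figures were drawn with matplotlib 3.10.9. The scripts were checked on simulated data. Named genes were the 4 members, 2 to 4 genes of each list with its counts, the fatty acid binding proteins and the 5 genes best correlated with each member, a few of which are not reported here. Of 101 list genes 100 were matched by symbol, Pecam1 not. The members, lists and rules were chosen with earlier results of these data known.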

Additional observations from a re-analysis of the deposited data

How the results depend on the processing

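Of the tests of the 4 genes under alternatives, 55 of 64 against nerve, 59 of 64 against central, 53 of 56 for TN against HC in neuron-rich and 35 of 36 over all spots, 50 of 56 for the interaction and 37 of 56 for the injury groups kept direction and side of the threshold. Values are log2 fold changes and counts are genes called, and the cause of a change was not tested.

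Against nerve spots, Apoe passed without a filter on low counts (0.55, adjusted p = 0.0329), at a score threshold of 1 (0.62, adjusted p = 0.0399), with the 100 highest spots (0.62, adjusted p = 0.0194) and per spot (1.54). Fabp7 lost its call at a score threshold of 0.25 (0.86) and thinned to 2000 UMIs (0.85). Per spot Glul (0.21) and Cdh19 (0.31) turned sign. Thinning lowered the count from 5886 to 2691. Against central spots, Apoe passed without a filter (0.56, adjusted p = 0.0131), with the 100 highest spots (0.45, adjusted p = 0.0463) and per spot (2.62), and Fabp7 (0.21) and Glul (0.24) turned sign per spot. The count of 5690 was 2892 after thinning and 10366 per spot.

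In TN against HC in neuron-rich spots, the count of 0 was 195 with DESeq2, 29 without a filter, 3 at a score threshold of 1, 37 after thinning, 201 per spot and 0 to 850 with an area left out (850 without TN1). Apoe was -0.00688 at a score threshold of 1 and -0.0321 to 0.126 with an area left out, and Fabp7 -0.000845 after thinning. Over all spots the count of 0 was 144 with DESeq2, 14 per spot and 0 to 2171 with an area left out (2171 without TN1), and Fabp7 was -0.16 to 0.28. For the interaction the count of 0 was 3 with DESeq2, 5 without a filter, 1 per spot and 0 to 3 with an area left out. Apoe was -0.0288 at a score threshold of 1 and -0.19 to 0.35 with an area left out, Glul 0.16 after thinning and 0.50 per spot, and Fabp7 0.70 per spot and -0.80 to 0.26 with an area left out.

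Between injury groups, the count of 734 was 229 with DESeq2, 126 with the 100 highest spots, 17 after thinning and 31 per spot. Fabp7 was -0.37 with DESeq2, -0.26 at a score threshold of 0.25, -0.26 per spot, 0.00617 after thinning and -0.46 to -0.26 with an area left out. Apoe was 0.00208 with DESeq2 and with its size factors, 0.0184 without a filter, 0.0037 with gene families left out, 0.19 at a score threshold of 0.25, 0.0638 without Scn10a, 0.0763 after thinning, 0.119 per spot and -0.0342 to 0.0600 with an area left out. Glul was -0.13 at a score threshold of 0.25 and -0.10 after thinning, and Cdh19 -0.00249 to 0.41 with an area left out (0.41 without TN2). A score threshold of 1 left too few spots and was not run there.

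Without the capture area as a replicate block, the counts were 5009 against nerve, 4522 against central spots and 0 between injury groups. Fabp7 then lost its call against nerve spots (1.07, adjusted p = 0.0516) and between injury groups (-0.36, adjusted p = 0.932). No paired analysis was possible for TN against HC because HC is 1 sample whose label carries no replicate number.

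The main limits are 1 HC sample, spots that hold several cells, depth that differs between classes, and classes that rest on few genes. Nerve spots came from the compressed side alone, so the differences to nerve spots are not shown for healthy tissue. Thinned to 2000 UMIs, Fabp7 lost its call against nerve spots and between injury groups, and Cdh19 kept both class calls.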

Other observations

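Spots that met the rule of no class held 163, 138, 349 and 241 CPM of Fabp7 in TN1, TN2, TN3 and HC, and 5034, 13736, 15715 and 6564 CPM of Apoe. Glul was at 542, 294, 306 and 280 CPM there, and Cdh19 at 32.6, 78.6, 117 and 22.9 CPM. In TN2 and TN3 these Apoe levels lay above those of neuron-rich, nerve and central spots of the same area, without a test.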
